A study of Gallus gallus with 12 samples.

Results

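The cadherin, protocadherin and catenin genes of the chicken were followed across MYCN-transformed retinal cells and normal embryonic retina. They were taken by symbol, as every gene of the table named CDH with a number, CDHR with a number, PCDH with any ending, or CTNNA, CTNNB or CTNND with a number. This rule found 40 of the 24358 genes in the table and used no measured value. Bulk RNA sequencing (poly(A)-selected, stranded) had been made of 12 White Leghorn libraries, 3 in each of 4 groups. "Young" DMC cells (lines DMC8, DMC9 and DMC10) were primary retinoblastoma cells that overexpressed human MYCN and had spent less than 4 weeks in culture. "Old" DMC cells (DMC1, DMC2 and DMC3) carried the same transgene and had been cultured for more than 200 days. MYCN-T58A DMC cells (DMC4, DMC5 and DMC6) overexpressed MYCN with the T58A mutation, a change that stabilizes the protein, and had also been cultured for more than 200 days. E14 retina (replicates 1 to 3) was the central retina of normal embryos, taken at embryonic day 14 and not electroporated. All 9 DMC lines came from retinas electroporated in ovo at embryonic day 3.5 with a piggyBac vector in which a CAG promoter, active in most cell types, drives MYCN and GFP. GFP-positive regions were dissected at embryonic day 14 and grown in suspension, and each line is 1 library. The retinas were dissociated with trypsin and the DMC cells by vibration and pipetting, so that transgene, culture and dissociation cannot be told apart in any comparison with E14 retina.

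Classical cadherins are calcium-dependent adhesion molecules that bind the same or a related cadherin on the neighbouring cell. Their cytoplasmic tails bind beta-catenin and p120-catenin, and alpha-catenin links this complex to actin. Type II cadherins and protocadherins are expressed in subsets of retinal neurons and help them to sort into layers and to find their partners. CDH2 (N-cadherin) is the main cadherin of the neural retina as a whole.

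Levels are given as normalized counts, which are reads scaled to the size of each library and are not divided by gene length, so that they are compared between libraries and not between genes. Between 20984957 and 35088450 reads were recovered per library. The hMYCN transgene had 0 reads in the 3 E14 retinas and 51712 (DMC5) to 334150 reads (DMC3) in the DMC lines. Summed photoreceptor markers, 10 of the 12 listed, lay at 18296 (DMC6), 18815 (DMC4) and 46568 to 88598 normalized counts (the other 7 lines), against 60645 to 73210 in E14 retina. DMC5 (86795) thus stood apart from the other T58A lines in this sum, and its hMYCN reads were below the 174465 and 176210 of DMC6 and DMC4. Single photoreceptor markers went both ways against E14 retina. Of the 10, 3 were called higher and 1 lower in young, 3 and 3 in old, and 2 and 4 in T58A DMC cells. The summed markers of the other retinal cell types were lower in all 9 lines, although single ganglion cell markers were called higher (3 of 12 in young, 2 in old and 1 in T58A DMC cells, against 8, 6 and 6 called lower). The 8 bipolar markers in the table summed to 1545 to 14469 against 72087 to 81484 in E14 retina, the 12 amacrine and horizontal cell markers to 1194 to 3682 against 23833 to 27617, the 12 ganglion cell markers to 3466 to 8661 against 14048 to 15996, and the 11 Müller glia and progenitor markers to 2279.8 to 4494 against 10934 to 11672. ISL1, a defining marker of bipolar and ganglion cells, had 0 reads in old and T58A DMC cells. Among 10 pigment epithelium markers the sum was 24008 to 75019 in the lines against 2201 to 3055 in E14 retina, almost all of it PMEL, while MLANA had 0 reads in old and T58A DMC cells.

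Of the 40 genes, 34 reached 10 reads in at least 3 libraries and were tested, and none of the 34 was DE and higher in young DMC cells than in E14 retina. Genes counted as differentially expressed (DE) where limma gave an adjusted p no higher than 0.05 together with a log2 fold change of 1 or more in either direction. In young DMC cells 23 of the 34 were DE and lower, 0 were DE and higher, and 11 were not called, where 23.0% of the 15284 genes tested were lower and 20.5% higher (43.5% in all). At an unadjusted p under 0.05, 2 of the 34 were higher (CDH15 and CTNNA1). Other settings called them higher in young DMC cells, CTNNA1 with only the 6 libraries compared and CDH15 without E14 replicate 3. CDH12, which was DE and higher in young DMC cells, has no symbol in the table. It is therefore not among the 34 and is described below. In old DMC cells 25 were lower and 1 was higher (CTNNA1), with 23.5% of all genes lower and 20.3% higher (43.8% in all). In T58A DMC cells 23 were lower and 0 higher, with 24.8% of all genes lower and 19.6% higher (44.5% in all), and no member was higher at an unadjusted p under 0.05 except CDH1. Over the 34 genes the log2 fold change had a median of −3.04, −2.79 and −3.03 in young, old and T58A DMC cells, against −0.03, −0.05 and −0.10 over all genes tested. These medians stayed the same with CDH9, which had 0 reads in every line, placed at the bound given below. CDH8, CDH9, CDH10 and CDH23 passed the filter on low values through the E14 libraries alone and had to differ, so that counts over the 34 describe these genes and test nothing about them. Whatever the test gave, the groups did not overlap in 27 of the 34 genes lower and 3 higher in young DMC cells (38.1% and 35.6% of all genes, 73.7% in all), in 24 lower and 1 higher in old DMC cells (35.9% and 33.4%, 69.3% in all) and in 27 lower and 1 higher in T58A DMC cells (32.8% and 28.1%, 60.9% in all). The 3 comparisons share the E14 libraries. In bulk RNA, fewer cells of a type and less RNA per cell cannot be told apart. The part of the lower neuronal markers in the lower cadherin levels was not tested.

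**Figure D1:**
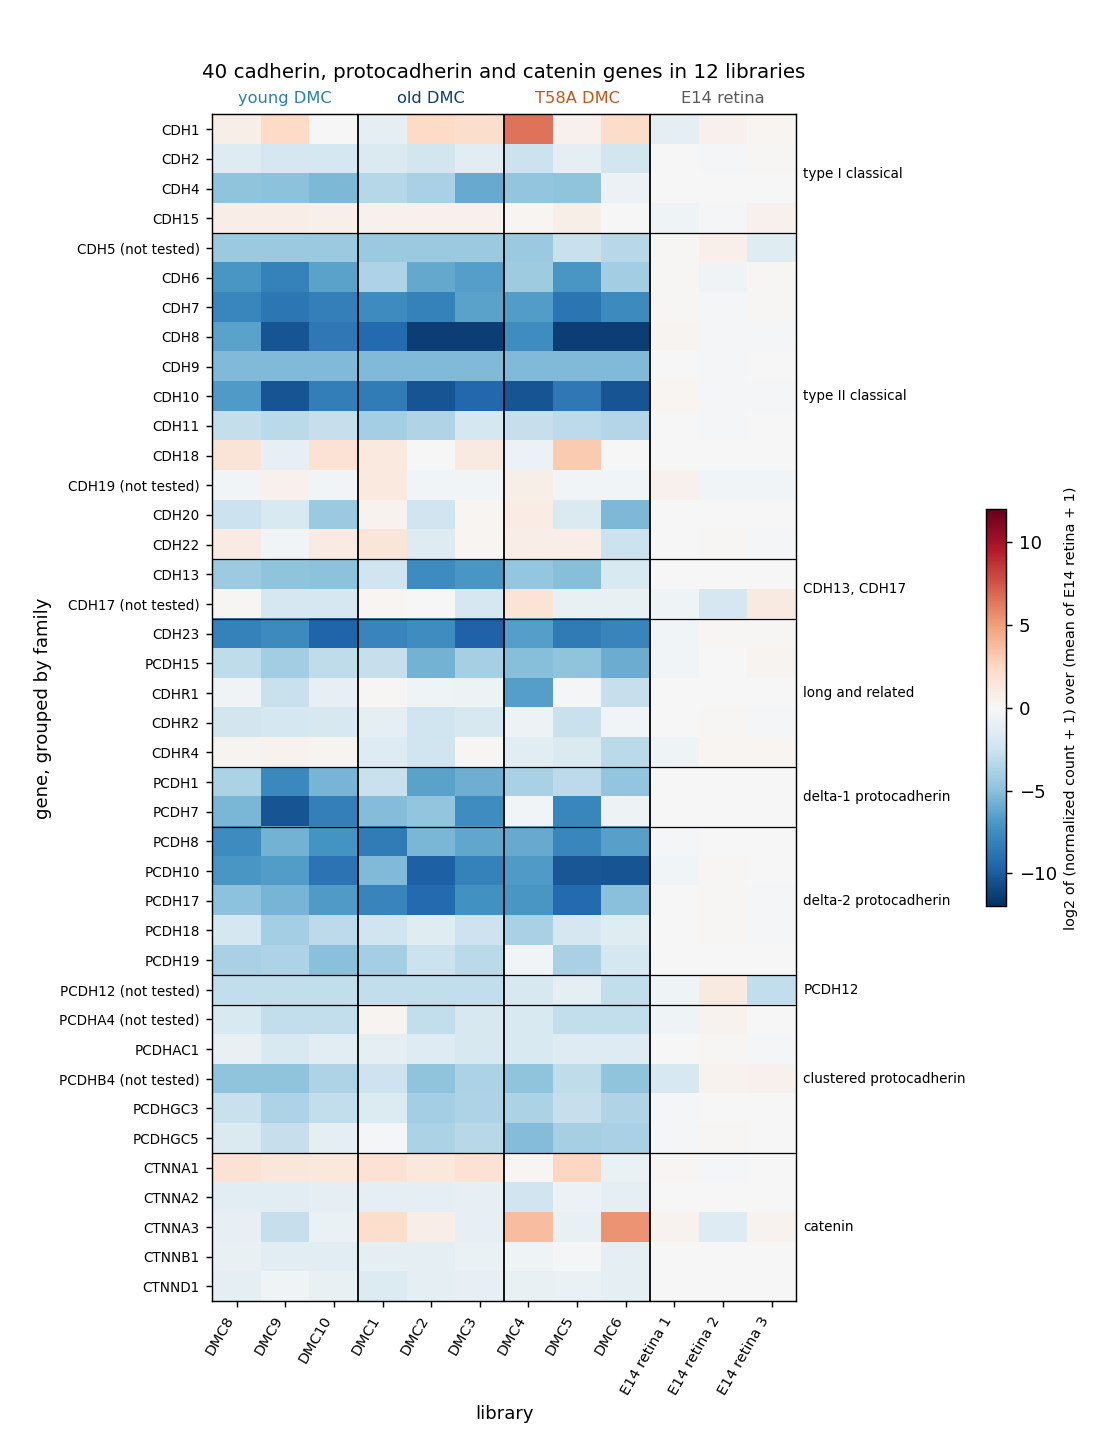
Heat map of 40 genes (rows, grouped by family) in 12 libraries (columns). Color is the log2 ratio of the normalized count plus 1 to that of the mean of E14 retina, blue lower and red higher. The type II cadherins CDH6 to CDH10 and the delta-2 protocadherins PCDH8, PCDH10 and PCDH17 are blue in all 9 DMC lines, and CDH1 in DMC4 and CTNNA3 in DMC4 and DMC6 are red.

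**Figure D2:**
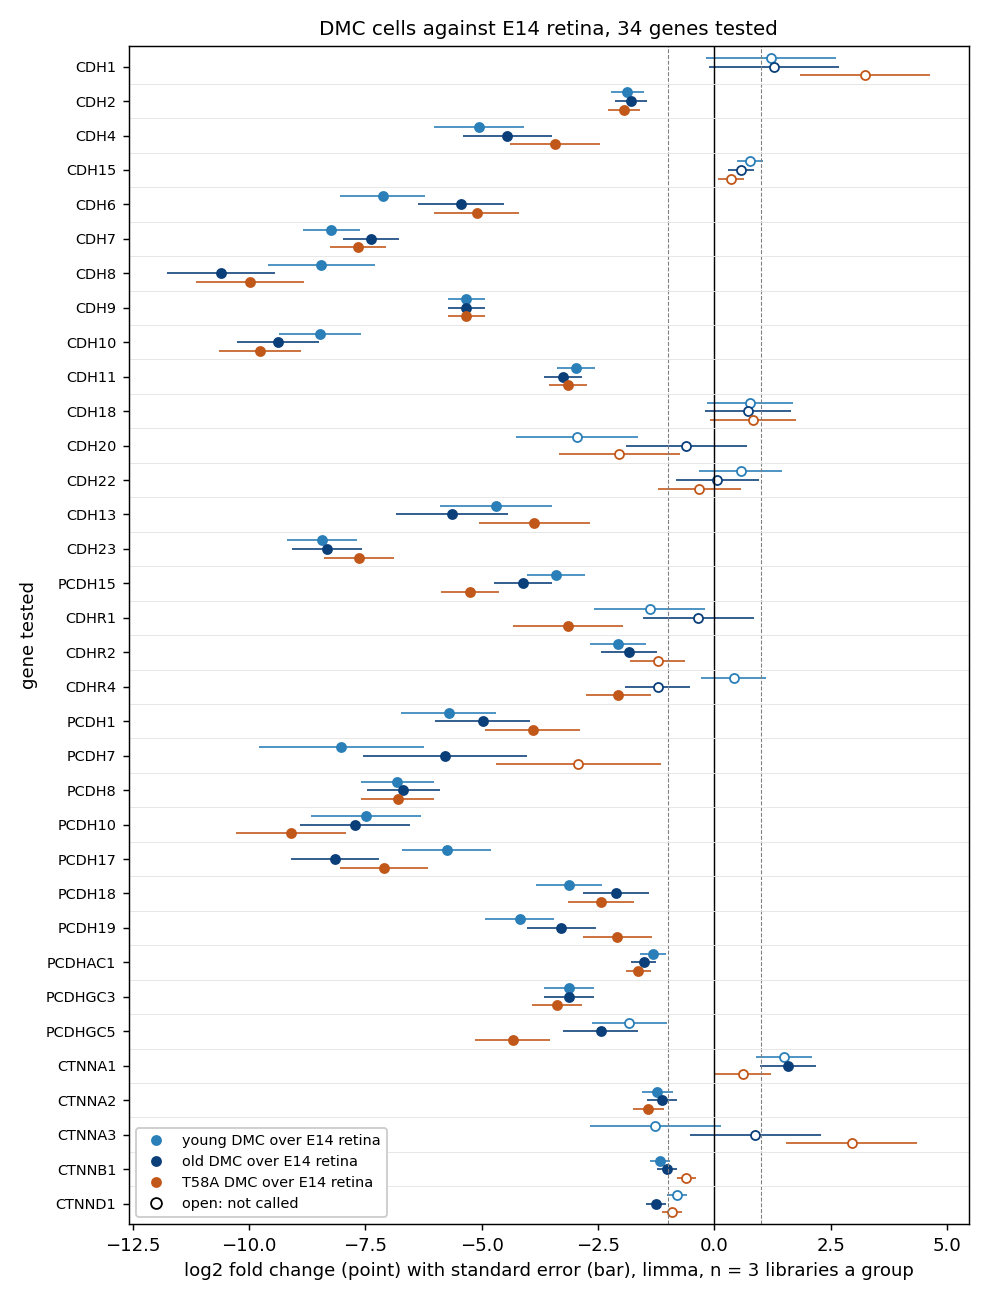
Log2 fold change (x axis, bars are the standard error from limma) of the 34 genes tested (y axis) in young, old and T58A DMC cells over E14 retina, with 3 libraries in each group. Filled points are DE and open points are not called; dashed lines mark a log2 fold change of 1 in either direction. CTNNA1 in old DMC cells is the only filled point right of 0.

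Among the type I classical cadherins, CDH2 and CDH4 were lower in all 3 groups of DMC cells, and CDH1 and CDH15 were not called. CDH2 measured 4689, 3521 and 3325 normalized counts in young DMC8, DMC9 and DMC10, 4059.5, 2944 and 5470.3 in old DMC1, DMC2 and DMC3, and 2335, 6606 and 3102 in T58A DMC4, DMC5 and DMC6, against 13465, 12786 and 15519 in E14 retina. Every line lay below every retina, and each line still held at least 2335. The log2 fold change was −1.87 ± 0.35 in young (adjusted p = 9.32e-04), −1.78 ± 0.35 in old (adjusted p = 0.00127) and −1.93 ± 0.35 in T58A DMC cells (adjusted p = 7.32e-04). Values after ± are the SE, with n = 3 libraries in each group, here and below for fold changes. Each SE rests on 1 spread per gene shared by all 4 groups. CDH4 (R-cadherin), a cadherin known from retinal neurons and glia of the chick, measured 94.2, 83.6 and 61.0 in young, 252, 175 and 38.5 in old, and 98.1, 93.2 and 1596 in T58A DMC cells, against 2593, 2711 and 2590 in E14 retina. DMC6 stood far above the other lines and still below each retina. CDH4 changed by −5.05 ± 0.96, −4.45 ± 0.96 and −3.42 ± 0.96 in young, old and T58A DMC cells (adjusted p = 0.00114, 0.00256 and 0.0112).

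CDH1 (E-cadherin), the cadherin of epithelia, was near absent from retina and from most lines. It measured 9.42, 32.4 and 5.54 in young, 1.93, 31.9 and 26.3 in old, and 573, 8.36 and 27.6 in T58A DMC cells, against 1.78, 7.93 and 6.36 in E14 retina. Only DMC4, with 514 reads, stood out. CDH1 was not called in any of the 3 comparisons (log2 fold change 1.21, 1.28 and 3.24, SE 1.40, adjusted p = 0.492, 0.464 and 0.0713), and without DMC5 it was called higher in T58A DMC cells (4.50, adjusted p = 0.0163). The gene listed as CDH15 (M-cadherin, known from muscle) measured 448 to 793 in the lines against 321, 422 and 652 in E14 retina and was not called (0.77 ± 0.28, 0.57 ± 0.28 and 0.35 ± 0.28, adjusted p = 0.0350, 0.101 and 0.302). Its identity is uncertain, because the Entrez identifier beside it belongs to ACSF3 in RefSeq. Without E14 replicate 3 it was called higher in young DMC cells (1.04, adjusted p = 0.0105). For CDH3 (P-cadherin) the table gives no symbol. The gene that RefSeq names CDH3, chosen by its Entrez identifier after the values were seen, measured 66.6 to 566 in the lines against 217 to 354 in E14 retina and was not called in any comparison, except lower in old DMC cells without DMC2 (−1.83, adjusted p = 0.0208).

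Type II cadherins with a symbol in the table ranged from genes with few or no reads in the lines to genes that were not called. CDH12, which has no symbol there, was DE and higher in young and old DMC cells, as given below. Of 11 in the table, 9 were tested, and 6 of the 9 (CDH6, CDH7, CDH8, CDH9, CDH10 and CDH11) were DE and lower in each of the 3 comparisons. Of all genes tested, 23.0%, 23.5% and 24.8% were lower in young, old and T58A DMC cells. CDH8, CDH9 and CDH10 passed the filter through the E14 libraries alone and had to differ, so that this count and their p-values describe them and test nothing. CDH8, a cadherin of retinal and cortical neurons, had 23, 1 and 5 reads in young DMC8, DMC9 and DMC10, 3, 0 and 0 reads in old DMC1, DMC2 and DMC3, and 12, 0 and 0 reads in T58A DMC4, DMC5 and DMC6, against 3421, 2542 and 2382 in E14 retina. The mean level in E14 retina was 222-fold that in young and 556-fold that in T58A DMC cells. For old DMC cells the ratio was 2576, and the counting error of their 3 reads alone gives a 95% interval of 896 to 12703 (exact Poisson). The fitted log2 fold changes were −8.44 ± 1.16, −10.61 ± 1.16 and −9.98 ± 1.16 (adjusted p = 1.23e-04, 2.82e-05 and 3.96e-05).

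CDH10 had 9, 0 and 3 reads in young, 3, 0 and 1 in old, and 0, 2 and 0 in T58A DMC cells, against 1786, 1335 and 1325 in E14 retina. The level in E14 retina was 285-fold that in young and 1036-fold that in old DMC cells, and 1659.5-fold that in T58A DMC cells, where 2 reads give an interval of 476 to 14206. The fitted log2 fold changes of CDH10 were −8.47 ± 0.88, −9.38 ± 0.88 and −9.77 ± 0.88 (adjusted p = 2.06e-05, 1.07e-05 and 7.96e-06). CDH9 had 0 reads in all 9 lines, against 47, 40 and 45 in E14 retina, and was at least 12.3-fold lower in young, 13.8-fold lower in old and 11.4-fold lower in T58A DMC cells (bound of 3 reads per library). CDH6 (K-cadherin), known from kidney and from retinal ganglion cell subsets, had 1, 0 and 2 reads in young, 21, 3 and 2 in old, and 12, 1 and 12 in T58A DMC cells, against 338, 233 and 340 in E14 retina. Its level in E14 retina was 239.9-fold that in young DMC cells (interval 87.5 to 1240.0 from 3 reads), 32.7-fold that in old and 28.7-fold that in T58A DMC cells, all DE (adjusted p = 8.09e-05, 5.01e-04 and 7.40e-04).

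CDH7, which marks subsets of neurons in the chick brain and retina, measured 11.8, 6.29 and 8.87 in young, 14.4, 9.39 and 32.9 in old, and 27.9, 5.97 and 13.8 in T58A DMC cells, against 3158, 2431 and 3235 in E14 retina. Its log2 fold change was −8.23 ± 0.60, −7.38 ± 0.60 and −7.66 ± 0.60 (adjusted p = 2.72e-06, 4.81e-06 and 3.29e-06). CDH11 (OB-cadherin) was lower but detected in every line, at 1046, 777 and 1081 in young, 436, 637 and 1750 in old, and 1108, 853 and 658 in T58A DMC cells, against 7871, 6914 and 7818 in E14 retina. The groups did not overlap, and CDH11 changed by −2.97 ± 0.41, −3.26 ± 0.41 and −3.14 ± 0.41 (adjusted p = 1.30e-04, 7.25e-05 and 8.97e-05).

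CDH18, CDH20 and CDH22 were not called in any of the 3 comparisons. CDH20 (MN-cadherin, first known from chick motor neurons) varied widely among the lines, with 87.2, 138 and 22.2 in young, 661, 95.8 and 593 in old, and 961, 157 and 11.5 in T58A DMC cells, against 499, 530.1 and 497 in E14 retina. All 3 young lines lay below E14 retina (−2.95 ± 1.31, adjusted p = 0.0778; 0.0484 without TMM factors), whereas old and T58A lines lay on both sides. Without DMC4, CDH20 was called lower in T58A DMC cells (−3.52, adjusted p = 0.0251). CDH18 ranged between 80.9 (DMC9) and 1411 (DMC5) in the lines against 157 to 162 in E14 retina, and CDH22 between 114 (DMC6) and 1892 (DMC1) against 633 to 749. CDH5 (VE-cadherin), the cadherin of endothelial cells, was not tested. It had 0 reads in 7 of the 9 lines, 2 in DMC5 and 1 in DMC6, against 26, 38 and 8 in E14 retina. The 8 endothelial markers in the table summed to 439 to 1532 in the lines and to 2639.5 to 4557 in E14 retina. Of the 5 endothelial markers tested, 1 was called higher and 2 lower in each of the 3 comparisons. CDH19 had at most 2 reads in any library and was not tested.

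**Figure D3:**
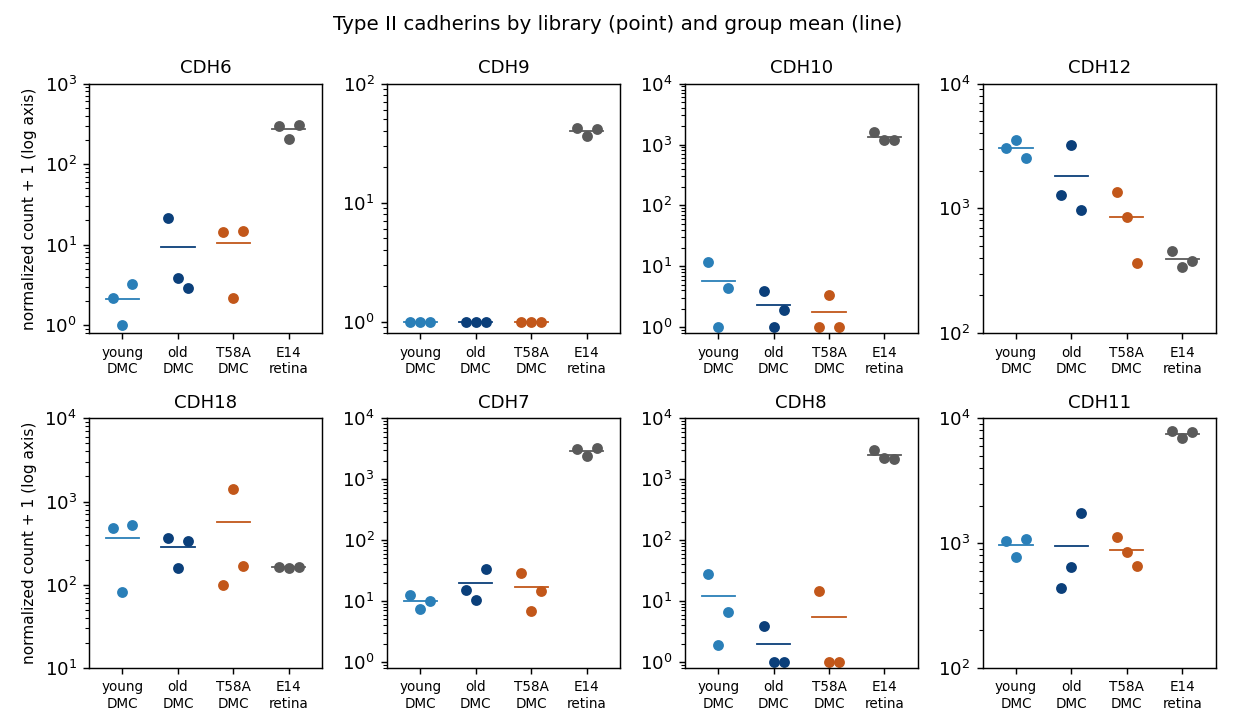
Normalized count plus 1 (y axis, logarithmic, with a different range in each panel) of 8 type II cadherins in young, old and T58A DMC cells and E14 retina. Points are libraries and lines are group means. CDH9 has 0 reads in all 9 lines, CDH12 is higher in every young and old line than in every retina, and CDH18 overlaps E14 retina in each group of lines.

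Several type II genes lie side by side in the genome, and some neighbours differed in their change against E14 retina. In the RefSeq order of the GRCg7b assembly, CDH6, CDH9, CDH10, CDH12 and CDH18 follow each other on 1 chromosome with 0 to 2 other protein-coding genes between neighbours. CDH12 carries no symbol in the table and was identified by its Entrez identifier after values were seen. It measured 3047, 3550 and 2516 in young DMC8, DMC9 and DMC10, 1285, 3205 and 966 in old DMC1, DMC2 and DMC3, and 1346, 856 and 364 in T58A DMC4, DMC5 and DMC6, against 457, 339.9 and 379 in E14 retina. Each young and each old line lay above every retina, and DMC6 did not. CDH12 was DE and higher in young (2.95 ± 0.48, adjusted p = 4.22e-04) and old DMC cells (2.02 ± 0.48, adjusted p = 0.00457) and was not called in T58A DMC cells (0.94 ± 0.48, adjusted p = 0.122; 1.46 and 0.0176 without DMC6). CDH10, next to CDH12 with no other protein-coding gene between, held at most 9 reads in any line, against 1786, 1335 and 1325 in E14 retina. CDH5, CDH11 and CDH8 also follow each other. CDH11 and CDH8 were both lower than in E14 retina, with log2 fold changes of −2.97 ± 0.41 and −8.44 ± 1.16 in young DMC cells.

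CDH13 (T-cadherin), which is held by a lipid anchor and lacks a cytoplasmic tail, measured 16.5, 11.7 and 11.1 in young, 66.4, 0.939 and 1.88 in old, and 13.4, 9.56 and 97.6 in T58A DMC cells, against 368, 347 and 363 in E14 retina. No line reached the level of a retina. It was DE and lower by −4.70 ± 1.20, −5.64 ± 1.20 and −3.87 ± 1.20 (adjusted p = 0.00654, 0.00224 and 0.0177), although in T58A DMC cells the call was lost without DMC4 or without DMC5 (adjusted p up to 0.0549). CDH17 (LI-cadherin), known from intestine, had at most 10 reads in any library and was not tested.

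CDH23 and PCDH15 form the tip links of inner ear hair cells and are also found in photoreceptors. CDH23 measured 4.71, 7.19 and 1.11 in young, 5.78, 8.45 and 0.939 in old, and 15.6, 3.58 and 5.74 in T58A DMC cells, against 1315, 1763 and 1744 in E14 retina. Its level in E14 retina was 371-fold that in young, 318-fold that in old and 193-fold that in T58A DMC cells (−8.43 ± 0.75, −8.32 ± 0.75 and −7.64 ± 0.75, adjusted p = 7.99e-06, 8.13e-06 and 1.37e-05). CDH23 passed the filter through the E14 libraries alone and had to differ, so that these p-values test nothing. PCDH15 was reduced less, at 638, 289 and 647 in young, 785, 101 and 344 in old, and 153, 189.98 and 86.1 in T58A DMC cells, against 4319, 4993 and 6653 in E14 retina. It changed by −3.41 ± 0.62, −4.11 ± 0.62 and −5.26 ± 0.62 (adjusted p = 8.44e-04, 2.48e-04 and 4.54e-05).

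CDHR1 (photoreceptor cadherin) sits at the base of photoreceptor outer segments. It measured 3516, 738 and 2424 in young, 5240, 3371 and 3128 in old, and 50.1, 4460 and 719 in T58A DMC4, DMC5 and DMC6, against 4593, 5138 and 4817 in E14 retina. DMC1 lay above the retinas and the other 8 lines below them. CDHR1 was not called in young (−1.39 ± 1.19, adjusted p = 0.349) or old DMC cells (−0.35 ± 1.19, adjusted p = 0.825) and was called lower in T58A DMC cells (−3.15 ± 1.19, adjusted p = 0.0431), a call lost under 7 of 15 other settings, among them leaving out DMC4, DMC6 or any 1 retina (adjusted p up to 0.128). Its lowest lines, DMC4, DMC6 and DMC9, included both lines with the lowest summed photoreceptor markers, DMC6 and DMC4. DMC9, however, had a marker sum of 61655, within the range of E14 retina. DMC2, with a lower sum of 46568, held 3371 of CDHR1. The part of photoreceptor content in CDHR1 was not tested. CDHR2 measured 23.9 to 126 in the lines against 148 to 173 in E14 retina, and was DE and lower in young (−2.08 ± 0.60, adjusted p = 0.0125) and old DMC cells (−1.83 ± 0.60, adjusted p = 0.0226; up to 0.0785 without DMC2, DMC3 or any 1 retina) but not called in T58A DMC cells (−1.22 ± 0.60, adjusted p = 0.105). CDHR4 stayed at 26.1 or less in every library and was called lower in T58A DMC cells (−2.07 ± 0.70, adjusted p = 0.0266; up to 0.0963 without DMC6 or E14 replicate 2 or 3).

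All 5 delta-2 protocadherins, which regulate cell adhesion and actin through a conserved cytoplasmic motif, were DE and lower in each of the 3 comparisons. Of all genes tested, 23.0%, 23.5% and 24.8% were lower in young, old and T58A DMC cells. The calls of PCDH18 in old and PCDH19 in T58A DMC cells were lost under some other settings, as given below. PCDH10 measured 33.0, 40.4 and 7.76 in young, 105, 3.76 and 14.1 in old, and 37.9, 2.39 and 2.30 in T58A DMC cells, against 3403, 4758 and 4432 in E14 retina. It changed by −7.49 ± 1.18, −7.72 ± 1.18 and −9.10 ± 1.18 (adjusted p = 3.18e-04, 2.64e-04 and 8.34e-05). PCDH17 measured 100.1, 62.0 and 26.6 in young, 11.6, 3.76 and 18.8 in old, and 23.4, 3.58 and 94.2 in T58A DMC cells, against 2882, 3428 and 2785 in E14 retina (−5.75 ± 0.95, −8.16 ± 0.95 and −7.10 ± 0.95, adjusted p = 4.42e-04, 4.39e-05 and 1.06e-04). The lines held at most 100.1 of PCDH17, far under each retina.

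PCDH8 measured 2.89 to 28.2 in the 9 lines against 1169, 1316 and 1358 in E14 retina and changed by −6.81 ± 0.78, −6.68 ± 0.78 and −6.81 ± 0.78 (adjusted p = 3.78e-05, 4.39e-05 and 3.70e-05). PCDH19, which forms adhesion complexes with CDH2, measured 69.5, 78.2 and 31.0 in young, 60.7, 169.9 and 107 in old, and 810.2, 69.3 and 242 in T58A DMC cells, against 982, 1027 and 1054 in E14 retina. DMC4 came closest to retina. The log2 fold change of PCDH19 was −4.18 ± 0.74, −3.29 ± 0.74 and −2.09 ± 0.74 (adjusted p = 6.95e-04, 0.00319 and 0.0327), and the call in T58A DMC cells was lost under 6 of 15 other settings, among them leaving out DMC5, DMC6 or any 1 retina (adjusted p up to 0.104). PCDH18 measured 4.49 to 34.5 in the lines against 88.2 to 104 in E14 retina (−3.12 ± 0.71, −2.11 ± 0.71 and −2.43 ± 0.71), and its call in old DMC cells was lost without DMC1, DMC3 or any 1 retina (adjusted p up to 0.0796). PCDH10 and PCDH18 are neighbours in RefSeq with no coding gene between, and PCDH17 and PCDH8 lie near PCDH9, which RefSeq names but the table does not. PCDH9, a delta-1 protocadherin chosen by Entrez identifier after the values were seen, measured 0 to 10.6 in the lines against 491, 495 and 513 in E14 retina, and PCDH11X, chosen in the same way, 0 to 23.6 against 2814, 2758 and 2981. Both were DE and lower in all 3 groups of DMC cells. However, PCDH9 and PCDH11X passed the filter through the E14 libraries alone and had to differ, so that these calls test nothing.

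The delta-1 protocadherins of the table are PCDH1 and PCDH7. PCDH1 measured 184, 11.7 and 53.2 in young, 424, 30.0 and 43.2 in old, and 173, 305 and 101 in T58A DMC cells, against 2607, 2777 and 2523 in E14 retina (−5.71 ± 1.03, −4.98 ± 1.03 and −3.91 ± 1.03, adjusted p = 7.75e-04, 0.00190 and 0.00770). PCDH7 measured 28.3, 0 and 3.32 in young, 34.7, 46.9 and 6.57 in old, and 1026, 4.78 and 848 in T58A DMC4, DMC5 and DMC6, against 1290, 1321 and 1282 in E14 retina. DMC4 and DMC6 stood apart and closer to retina, and the other 7 lines held at most 46.9. PCDH7 was DE and lower in young (−8.01 ± 1.77, adjusted p = 0.00285) and old DMC cells (−5.79 ± 1.77, adjusted p = 0.0170; 0.0651 without DMC3) and not called in T58A DMC cells (−2.92 ± 1.77, adjusted p = 0.185). PCDH12 had at most 18 reads in any library and was not tested.

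Of the 5 clustered protocadherins, which neurons use to tell their own processes from those of other cells, PCDHAC1, PCDHGC3 and PCDHGC5 were tested. Genes of a cluster share their last exons and have near-identical copies. Reads from such sequence may be lost or given to another gene of the cluster, so that the levels are uncertain. PCDHGC3 measured 7157, 3548 and 5876 in young, 15140 (DMC1), 2673 and 3644 in old, and 3246, 6951 and 3822 in T58A DMC cells, against 42873, 49231 and 46742 in E14 retina. DMC1 too lay under the lowest retina. It changed by −3.12 ± 0.54, −3.13 ± 0.54 and −3.39 ± 0.54 (adjusted p = 6.25e-04, 6.26e-04 and 3.55e-04). PCDHAC1 measured 409 to 857 in the lines against 1432 to 1689 in E14 retina and was DE and lower in each comparison (−1.33, −1.52 and −1.63, SE 0.28). PCDHGC5 measured 695, 332 and 1104 in young, 1997 (DMC1), 160 and 221 in old, and 61.3, 146 and 152 in T58A DMC cells, against 1891, 2565 and 2352 in E14 retina. DMC1 alone overlapped the retinas. PCDHGC5 was called lower in old (−2.44 ± 0.80, adjusted p = 0.0238) and T58A DMC cells (−4.33 ± 0.80, adjusted p = 9.29e-04) and not in young DMC cells (−1.83 ± 0.80, adjusted p = 0.0758; 0.0307 with voom weights). The call in old DMC cells was lost without DMC2, DMC3 or E14 replicate 2 or 3 (adjusted p up to 0.101). PCDHA4 and PCDHB4 had at most 10 and 42 reads in any library and were not tested.

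The catenins, which bind the cytoplasmic tails of cadherins, stayed at 1071 counts or more in every line, apart from CTNNA3. CTNNB1 (beta-catenin), which also carries the Wnt signal to the nucleus, measured 6948, 5249 and 5240.1 in young, 6247, 5801 and 7385 in old, and 9124, 10845 and 6335 in T58A DMC cells, against 12415, 13695 and 12842 in E14 retina. All 9 lines lay below the retinas. CTNNB1 was DE and lower in young (−1.17 ± 0.21, adjusted p = 8.48e-04) and old DMC cells (−1.01 ± 0.21, adjusted p = 0.00222), and in T58A DMC cells its change was smaller than the limit of 1 (−0.60 ± 0.21, adjusted p = 0.0334). The call in old DMC cells rests on that limit and was lost under 4 of 15 other settings, among them leaving out DMC1, DMC2 or E14 replicate 2, with adjusted p up to 0.0113. CTNND1 (p120-catenin) measured 1568, 2572 and 1869.7 in young, 1098, 1576.5 and 1694 in old, and 1883, 1920.1 and 1629.6 in T58A DMC cells, against 3343, 3574 and 3314 in E14 retina (−0.80 ± 0.22, −1.25 ± 0.22 and −0.92 ± 0.22, adjusted p = 0.00934, 6.13e-04 and 0.00423). Each line lay below each retina, and the log2 fold change passed 1 in old DMC cells, and also in young (−1.22) and T58A DMC cells (−1.15) when no TMM factor was used.

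The alpha-catenins did not move together. CTNNA2, the alpha-catenin of neurons, measured 2449.8, 2169 and 2731 in young, 2519.8, 2506 and 2835 in old, and 1071, 3415 and 2665 in T58A DMC cells, against 5608, 5759 and 5756 in E14 retina, and was DE and lower in each comparison (−1.23 ± 0.33, −1.13 ± 0.33 and −1.42 ± 0.33, adjusted p = 0.00911, 0.0143 and 0.00395). In T58A DMC cells that call was lost without DMC4. CTNNA1, the alpha-catenin of epithelia and most other tissues, measured 8056, 6141 and 5804 in young, 8029, 5506 and 7826 in old, and 2651, 12793 and 1347 in T58A DMC4, DMC5 and DMC6, against 2649.8, 2136 and 2252 in E14 retina. Every young and old line lay above every retina, DMC4 was level with the highest retina and DMC6 was below all of them. CTNNA1 was called higher in old DMC cells (1.59 ± 0.60, adjusted p = 0.0432), a call lost under 9 of 15 other settings, among them leaving out any 1 old line or retina (adjusted p up to 0.105). It missed the threshold in young (1.50 ± 0.60, adjusted p = 0.0544) and in T58A DMC cells (0.61 ± 0.60, adjusted p = 0.407). Fitted to the 6 libraries compared alone, it passed in young DMC cells (1.50, adjusted p = 1.19e-04). CTNNA3, known from heart muscle and testis, measured 0.899 to 54.9 in young and old DMC cells and 168, 5.97 and 552 in T58A DMC4, DMC5 and DMC6, against 16.9, 3.52 and 16.4 in E14 retina. It was not called (−1.27 ± 1.41, 0.88 ± 1.41 and 2.95 ± 1.41, adjusted p = 0.471, 0.623 and 0.0970) and was called higher in T58A DMC cells without DMC5 (4.77, adjusted p = 0.00261).

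**Figure D4:**
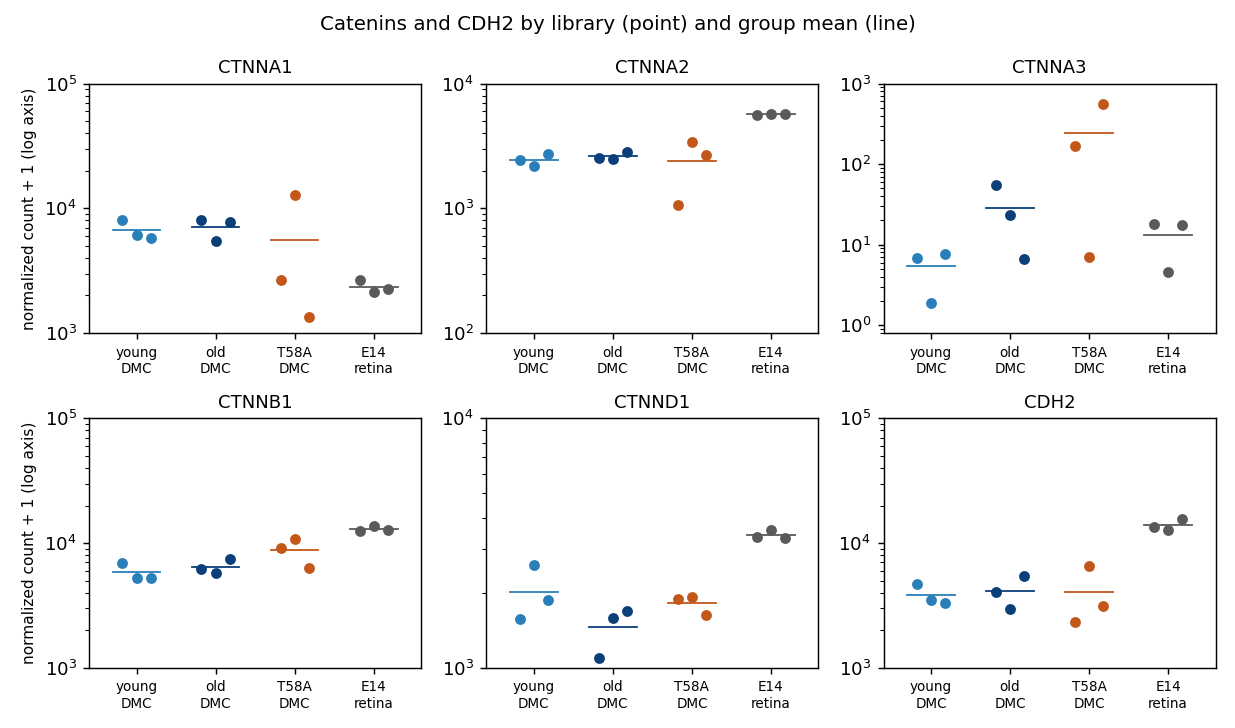
Normalized count plus 1 (y axis, logarithmic, with a different range in each panel) of 5 catenins and CDH2 in young, old and T58A DMC cells and E14 retina. Points are libraries and lines are group means. CTNNA1 lies above E14 retina in all young and old lines and splits in the T58A lines, with DMC5 at 12793 and DMC6 at 1347.

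Genes around the cadherins were followed as lists, whose counts are to be read against the 23.0%, 23.5% and 24.8% of all genes tested that were lower, and the 20.5%, 20.3% and 19.6% that were higher, in young, old and T58A DMC cells. Of 13 other members of the cadherin superfamily that were tested, 11, 11 and 10 were DE and lower in young, old and T58A DMC cells and 0 were higher. FAT4, a giant cadherin of the planar polarity and Hippo pathways, averaged 182 ± 78.7 in young, 104 ± 15.4 in old and 195 ± 123 in T58A DMC cells, against 11556 ± 1181 in E14 retina (SD, n = 3). RET, a receptor kinase with cadherin repeats, averaged 10.4 ± 5.31 in young, 32.3 ± 17.2 in old and 425 ± 358 in T58A DMC cells, against 547 ± 177 in E14 retina, and was called lower in young and old DMC cells. Of 16 junction partners, 2 were higher in each comparison and 5, 6 and 8 were lower, and the 5 in young DMC cells lie near the share of all genes. CTNNAL1 (alpha-catulin) changed by −7.13 ± 0.96 and NECTIN3 by −5.29 ± 0.68 in young DMC cells over E14 retina, whereas NECTIN4 (1.27 ± 0.35, adjusted p = 0.0103) and PKP1 (plakophilin, 3.14 ± 0.79, adjusted p = 0.00600) were higher. NECTIN4 was not called when no TMM factor, or the deposited values, were used, and PKP1 was not called with a pseudocount of 10 (adjusted p = 0.0801).

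Among 9 genes that process cadherins, 1 was higher and 2 were lower in young DMC cells, 0 and 2 in old, and 1 and 3 in T58A DMC cells, and the 2 lower genes in young and old DMC cells are no more than the share of all genes. The protease ADAM9 averaged 4162 ± 403 in young DMC cells against 2019 ± 48.3 in E14 retina (1.04 ± 0.17, adjusted p = 3.58e-04), while the convertase PCSK5 averaged 1.57 ± 2.72 against 315 ± 44.8 (−7.46 ± 1.03) and NCSTN, a gamma-secretase subunit, 992 ± 219 against 2139 ± 17.9 (−1.13 ± 0.20). ADAM9 fell short of a log2 fold change of 1 under 5 of 15 other settings, among them leaving out DMC8 or DMC9, and NCSTN did so without DMC9. Of 5 repressors of cadherin transcription, ZEB2 averaged 1524 ± 693 in young DMC cells against 14985 ± 672 in E14 retina (−3.39 ± 0.58, adjusted p = 5.33e-04), and ZEB1 averaged 3196 ± 934 against 1142 ± 22.2 (1.44 ± 0.35, adjusted p = 0.00464). The call of ZEB1 in young DMC cells was lost with the deposited values (adjusted p = 0.0625), its call in old DMC cells under 6 of 15 other settings, among them leaving out DMC2, DMC3 or E14 replicate 2 or 3 (adjusted p up to 0.117), and it was not called in T58A DMC cells (0.67 ± 0.35, adjusted p = 0.125). Of 15 genes of the beta-catenin pathway 0 were higher and 4, 5 and 5 were lower in young, old and T58A DMC cells, close to the share of all genes that were lower. APC2, a neuronal member of the destruction complex, averaged 388 ± 127 in young DMC cells against 15912 ± 2416 (−5.41 ± 0.38) and TCF7L1, a repressor of Wnt targets, 8.93 ± 5.66 against 189 ± 31.5 (−4.40 ± 0.62).

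Between old and young DMC cells 0 of the 34 genes were called in limma, where 0.196% of all genes tested were called (0.0589% higher and 0.137% lower). At an unadjusted p under 0.05 there were 2, PCDH17 and CDHR4. PCDH17 averaged 11.4 ± 7.51 in old and 62.9 ± 36.8 in young DMC cells (SD, n = 3 each), and its groups did not overlap (log2 fold change −2.41 ± 0.95, adjusted p = 0.459). CDHR4 averaged 9.75 ± 9.56 in old and 24.7 ± 1.28 in young DMC cells (−1.64 ± 0.70, adjusted p = 0.504). Among the 34 genes, 3 did not overlap between old and young lines, all lower in old, where 8.03% of all genes tested did so (8.88% were higher without overlap, 16.9% in all). The count of 0 also came from voom weights and from each of the other settings tried. Of the 13 other members of the cadherin superfamily that were tested, 1 was called lower in old than in young DMC cells and 0 were higher. CDH2, at 4158 ± 1266 in old and 3845 ± 737 in young DMC cells, had a log2 fold change of 0.08 with an SE of 0.35, which leaves room for a moderate change in either direction.

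T58A and old DMC cells likewise had 0 of 34 genes called in limma, with 0.0393% of all genes called (0.0327% higher and 0.00654% lower) and 2 of the 34 at an unadjusted p under 0.05. PCDHGC5 averaged 120 ± 50.5 in T58A and 792 ± 1044 in old DMC cells (−1.89 ± 0.80, adjusted p = 0.227), and was the only one of the 34 whose groups did not overlap (7.83% of all genes lower and 7.39% higher, 15.2% in all). CDHR1 averaged 1743 ± 2377 in T58A and 3913 ± 1156 in old DMC cells (−2.80 ± 1.19, adjusted p = 0.229). These counts rest on DMC5. Without it, 6 of the 34 genes were called between T58A and old DMC cells, with the remaining pair of T58A lines assumed to vary as the other groups do. The share of all genes called without DMC5 is not given here, and whether these 6 calls are particular to the cadherin genes was not tested. CTNNA3 (3.89, adjusted p = 0.0230), PCDH7 (5.31, adjusted p = 0.0108), PCDH19 (2.09, adjusted p = 0.0285) and CDHR2 (1.35, adjusted p = 0.0475) were then higher in T58A DMC cells, and CTNNA1 (−1.89, adjusted p = 0.00192) and CDHR1 (−4.31, adjusted p = 0.00905) were lower. DMC4 and DMC6 were below every old line in CTNNA1, CDHR1 and summed photoreceptor markers and above every old line in CTNNA3, PCDH7, PCDH19 and CDHR2, while DMC5 was on the other side of at least some old lines in each. These genes were picked by leaving out DMC5, so that their pairing of DMC4 with DMC6 follows from that choice. Other members paired DMC4 with DMC5, as CDH4 (98.1 and 93.2, against 1596 in DMC6) and CDH22 (1178 and 1201, against 114 in DMC6). DMC4 and DMC5 bear the tags RPMI.1 and RPMI.2 in the labels and DMC6 the tag DMEM.1, and the protocol names RPMI 1640 medium for all lines.

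**Figure D5:**
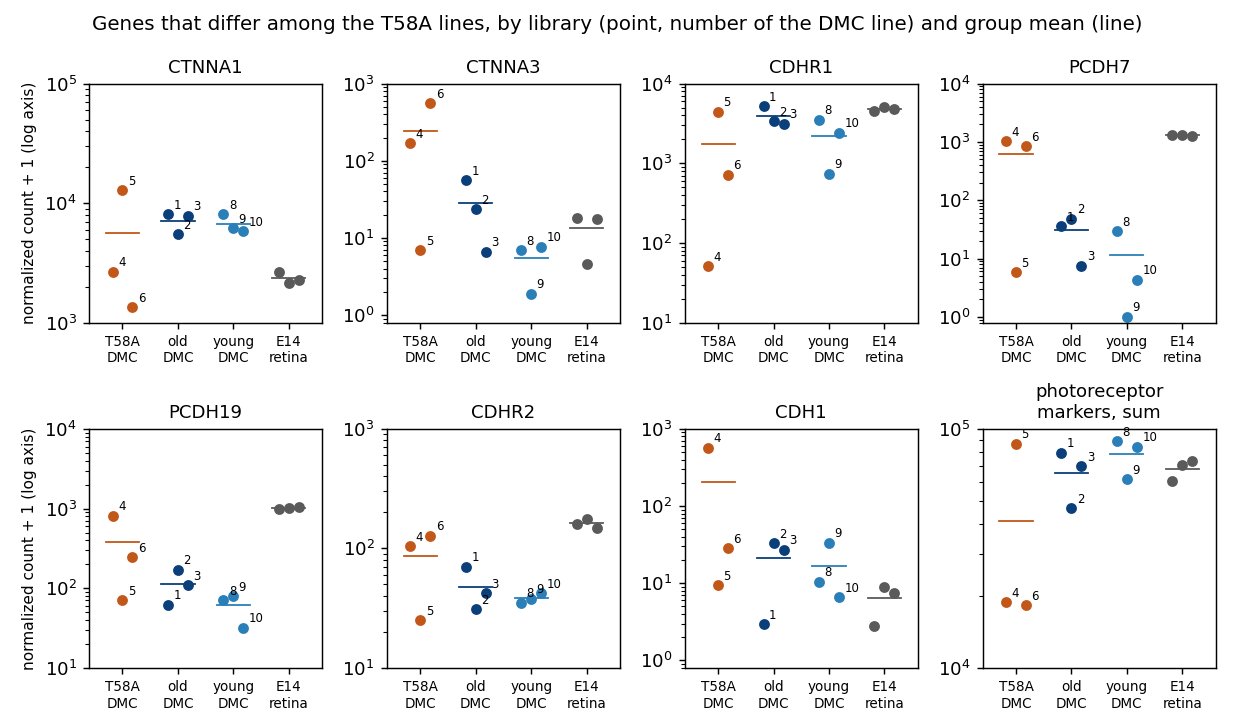
Normalized count plus 1 (y axis, logarithmic, with a different range in each panel) of 7 genes, and the sum of 10 photoreceptor markers, in T58A, old and young DMC cells and E14 retina. Points are libraries with the number of the DMC line, and lines are group means. The genes shown were chosen because they differ among the T58A lines. DMC4 and DMC6 lie together and apart from DMC5 in CTNNA1, CTNNA3, PCDH7 and the marker sum, with PCDH7 at 1026 and 848 against 4.78.

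The cadherin genes varied more between lines than between retinas. The SD of the log2 level over the 9 lines had a median of 1.29 in the 34 genes tested, against 0.632 over the 15284 genes tested, while over the 3 retinas it was 0.123 against 0.168. With genes of a mean of at least 100 over the 9 lines, the median over the lines was 1.18 in 19 genes and 0.477 in 10665 genes. Single lines can still hold few reads of such genes, as PCDH7 with 0 reads in DMC9 and 3 in DMC10, so that counting error is not excluded. These medians describe the genes and carry no test. The line with the highest level differed between genes. CDH1, PCDH7, PCDH19 and CDH20 were highest in DMC4, CDH4, CTNNA3 and CDH13 in DMC6, CDH18, CTNNA1 and CDH2 in DMC5, and PCDH1, PCDH10, PCDHGC3 and PCDHGC5 in DMC1. CTNNB1 and CTNND1 varied little, with an SD of the log2 level of 0.35 and 0.33 over the 9 lines.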

How the data were processed

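RNA-seq was made from 12 libraries, 3 in each group. The deposited values are a signal that the authors made from reads: they ran nf-core/rnaseq on the galGal6 genome, counted reads per gene with featureCounts 2.0.0 and scaled the counts with edgeR's TMM method. Every value above 0 was a whole number divided by 1 of 12 constants, the TMM factors, which run across the rows out of step with the libraries. Multiplying each value by its constant returned whole reads, and 8.36% of values carried the factor of the right library, so reads were rescaled by library total and TMM factor, and these normalized counts were used. The unit is deposited as a scaled signal and not as counts, and no count test was run.

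Genes with at least 10 reads in at least 3 libraries were tested with limma 3.58.1 (eBayes with trend) in R 4.3.3 on log2(normalized count + 1), in 1 model of all 4 groups, with Benjamini-Hochberg adjustment over all genes tested, so that fold changes of low genes are understated. The limits for DE were 0.05 for the adjusted p and 1 for the log2 fold change in either direction. Values are per library, or mean ± SD, and fold changes carry the SE. Nothing says that the 3 E14 libraries are separate animals, so that p-values refer to these samples only. The spread behind each SE and p-value is 1 estimate per gene, shared by all 4 groups. It therefore also reflects groups outside the comparison and is not the spread of the 2 groups compared. Ratios from 1 to 3 reads carry 95% Poisson intervals and zero counts a bound of 3 reads per library, both for counting error only. Every member was described. From each list of related genes, the genes named were those called in young DMC cells with the largest change, up to 2 in each direction. The members and lists were chosen with earlier results of these data known. Gene names and order not in the table were taken from RefSeq (GRCg7b), without coordinates. Alternatives were library totals, deposited values, median-of-ratios factors, pseudocounts of 0.1 and 10, filters, voom weights, the 6 libraries of a comparison alone, and leaving out each library. The limma step was tested on simulated data. Tables were made with pandas 2.3.3 and numpy 2.4.6 under Python 3.11.15, and figures with matplotlib 3.10.9.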

Additional observations from a re-analysis of the deposited data

How the results depend on the processing

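No member called lower than E14 retina turned higher under any alternative. The count called lower was 23 in young, 21 to 23 in old and 20 to 21 in T58A DMC cells with 1 library left out. The count called higher was 0 to 1 in young, 0 to 0 in old and 0 to 2 in T58A DMC cells over E14 retina, and between T58A and old DMC cells 0 to 4 were higher and 0 to 2 lower, the highest counts without DMC5. The shares of all genes called with 1 library left out are not given here. Whether the counts of members moved with those shares was therefore not tested. With only the 6 libraries compared, 1 was higher in young DMC cells. In old DMC cells 0 were higher with library totals, with deposited values and with no filter beyond 1 read. Direction changed only for genes that were not called. Without TMM factors CDH3 was −0.055 in young and CDH22 −0.28 in old DMC cells; with deposited values CDH22 was −0.25 in old and CDH15 −0.016 in T58A; with median-of-ratios factors CDH22 was −0.00019 in old DMC cells. With 1 library left out, CDH22 was −0.64 to 0.86 and CDH20 −1.09 to 0.30 in old DMC cells, and CTNNA1 was −0.31 to 1.32, CDH18 −0.31 to 1.59, RET −2.22 to 0.24, CDH22 −0.90 to 0.80 and CDH3 −0.67 to 0.24 in T58A DMC cells. The causes were not tested. CTNND1 was called lower in young (−1.22) and T58A DMC cells (−1.15) without TMM factors, which move the median of all genes to −0.45, −0.38 and −0.32 in young, old and T58A DMC cells. No paired analysis was possible because the numbers of the DMC groups name separate lines, which no label ties to each other or to a retina replicate. Genes under about 10 reads have no reliable level.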
